A study of Mus musculus with 10 samples.

Results

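The genes described here encode 8 enzymes that add or remove acetyl groups on histones and other proteins: the acetyltransferases Crebbp, Ep300, Kat2a and Kat2b, and the deacetylases Hdac3, Hdac4, Hdac5 and Hdac9. They were chosen by name, as 8 of the 21883 protein-coding genes of the RefSeq annotation of GRCm38/mm10. Each was described by the ChIP-seq regions that overlap its body or the 5 kb on either side. The regions came from C57BL/6J mouse cortical neurons in primary culture for 6 days. The cultures spent the night in 3% serum and were then either untreated or depolarized for 45 min by KCl at 50 mM. The antibodies were against the histone marks H3K4me1 and H3K27ac, against Gtf3c1 (a DNA-binding subunit of the RNA polymerase III factor TFIIIC) and against the large catalytic subunit of that polymerase, Rpc155. Each antibody gave 1 deposited list of regions per condition, 8 lists in all, although the design states 3 biological replicates per condition. The differences below are therefore between single lists, without a check across replicates and without p-values. The cultures are bulk samples, so a weaker region in all cells and a region present in fewer cells cannot be told apart.

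H3K4me1 is found at enhancers whether or not they are active, and H3K27ac marks active enhancers and promoters. H3K27ac itself is written mainly by Crebbp (CBP) and Ep300 (p300), coactivators that the calcium-responsive factor CREB recruits in stimulated neurons. Kat2a (GCN5) and Kat2b (PCAF) are the alternative catalytic subunits of the SAGA and ATAC coactivator complexes. Hdac3 is the catalytic subunit of nuclear receptor corepressor complexes. Hdac4, Hdac5 and Hdac9 are class IIa deacetylases, which bind MEF2 factors in the nucleus and, once phosphorylated by calcium-dependent kinases, are held in the cytoplasm by 14-3-3 proteins. The lists describe chromatin at the genes that encode these enzymes, not the enzymes' own binding or activity.

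The genes differ widely in size. Hdac9 spans 870 kb of chromosome 12 (34047580 to 34917095) and Hdac4 spans 267 kb of chromosome 1 (91928779 to 92195702). Crebbp spans 133 kb of chromosome 16 (4081334 to 4213957), Kat2b 106 kb of chromosome 17 (53566774 to 53672721) and Ep300 65.9 kb of chromosome 15 (81586209 to 81652077). Hdac5 spans 34.4 kb of chromosome 11 (102195747 to 102230172), Hdac3 18.05 kb of chromosome 18 (37936971 to 37955015) and Kat2a 7.74 kb of chromosome 11 (100704746 to 100712485). Exons were not separated from introns. The windows of Ep300, Hdac4 and Hdac9 hold no other protein-coding gene. The window of Kat2a also takes in the whole of Hspb9 and parts of Dhx58 and Rab5c. That of Hdac3 takes in the whole of Rell2, only 38 bp from Hdac3, and parts of Diaph1 and Fchsd1. Crebbp has Trap1 at its downstream edge, Kat2b has Sgo1, and Hdac5 has G6pc3.

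The start sites themselves differ in sequence, and 6 of them are shown because the H3K27ac and Gtf3c1 values below turn on them. The RefSeq table (GRCm38.p6) holds 9 start sites for 7 of the genes, with a second one for Kat2b and for Hdac9. Each stretch runs from 250 bases before the start site to 30 bases from it on, 5′ to 3′ along the gene. Capitals mark matches, on either strand, to the cyclic AMP response element TGACGTCA, its short core TGACG, the AP-1 site TGANTCA, the MEF2 site (CTA, any 4 bases, TAG), the E-box CACGTG or the B box of RNA polymerase III promoters (GTTCGA, any 2 bases, CC).

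Ep300, chr15:81585964-81586243, plus strand: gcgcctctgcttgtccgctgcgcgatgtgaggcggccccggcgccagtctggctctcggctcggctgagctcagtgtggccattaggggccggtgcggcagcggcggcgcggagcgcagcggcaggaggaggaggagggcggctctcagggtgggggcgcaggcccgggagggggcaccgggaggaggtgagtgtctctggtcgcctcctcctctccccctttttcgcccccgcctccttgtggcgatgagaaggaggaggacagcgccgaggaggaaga
Kat2b first start, chr17:53566721-53567000, plus strand: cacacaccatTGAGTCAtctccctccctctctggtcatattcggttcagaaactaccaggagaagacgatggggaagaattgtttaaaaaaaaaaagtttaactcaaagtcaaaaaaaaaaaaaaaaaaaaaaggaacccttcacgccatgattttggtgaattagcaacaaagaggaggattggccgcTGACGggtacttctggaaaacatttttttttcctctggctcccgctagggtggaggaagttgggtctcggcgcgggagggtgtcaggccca
Hdac4, chr1:92180312-92180591, minus strand: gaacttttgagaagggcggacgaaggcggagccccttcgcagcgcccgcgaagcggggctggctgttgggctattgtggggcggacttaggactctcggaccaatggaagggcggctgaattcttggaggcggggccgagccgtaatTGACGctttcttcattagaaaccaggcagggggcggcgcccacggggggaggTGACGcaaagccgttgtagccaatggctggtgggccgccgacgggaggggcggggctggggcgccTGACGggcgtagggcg
Hdac5, chr11:102230143-102230422, minus strand: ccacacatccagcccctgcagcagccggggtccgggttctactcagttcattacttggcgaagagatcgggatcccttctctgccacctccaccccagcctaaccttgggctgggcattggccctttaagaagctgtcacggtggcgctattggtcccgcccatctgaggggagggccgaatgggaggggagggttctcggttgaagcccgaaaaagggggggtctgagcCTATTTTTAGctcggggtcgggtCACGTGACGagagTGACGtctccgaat
Hdac9 first start, chr12:34917066-34917345, minus strand: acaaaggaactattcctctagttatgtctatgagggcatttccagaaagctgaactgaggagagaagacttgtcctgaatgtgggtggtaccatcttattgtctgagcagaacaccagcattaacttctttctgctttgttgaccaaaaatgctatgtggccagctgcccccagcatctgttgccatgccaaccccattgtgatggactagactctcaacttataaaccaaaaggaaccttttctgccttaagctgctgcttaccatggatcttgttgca
Hdac9 second start, chr12:34528860-34529139, minus strand: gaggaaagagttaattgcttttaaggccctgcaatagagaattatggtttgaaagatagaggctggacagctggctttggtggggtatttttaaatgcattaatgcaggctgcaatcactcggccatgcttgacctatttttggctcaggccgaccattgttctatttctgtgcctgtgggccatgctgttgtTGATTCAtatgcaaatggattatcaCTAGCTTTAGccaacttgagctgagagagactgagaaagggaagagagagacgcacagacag

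None of the 9 windows, each 300 bases long, held the whole cyclic AMP response element or a B box, which 1.79% and 0.387% of the table's 32851 windows did. The short core was in 4 of the 9 against 20.8% of all windows. It lay in Hdac4 at positions -103, -51 and 14 from the start site, in Hdac5 at 7 and 16, in Kat2a at -17 and in Kat2b at -61. The first of the Hdac5 cores overlaps that gene's E-box, at 3, a motif held by 7.15% of all windows. The MEF2 site was in Hdac5 (at -20) and at the second Hdac9 start (at -32), against 3.69% of all windows. The AP-1 site was at that same Hdac9 start (at -57) and at the first Kat2b start (at -240), against 7.81%. The windows of Crebbp, Ep300 and Hdac4 are rich in G and C (82.0%, 72.3% and 68.0%, with 49, 30 and 32 CpG dinucleotides). The median over all windows was 52.7% and 7. The 2 Hdac9 windows lie below it, at 44.0% with 0 CpG and 45.3% with 3. A match to these letters is a description of the sequence and not a measured binding site.

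The windows of all 8 genes held H3K4me1, H3K27ac and Gtf3c1 regions in both conditions, in some cases only outside the gene body. Over all protein-coding genes 76.6% did so for H3K4me1, 61.6% for H3K27ac and 54.1% for Gtf3c1. These shares rise with window length. For windows of 50 to 150 kb (Crebbp, Ep300 and Kat2b) they were 93.1%, 79% and 71.5%. Over 150 kb (Hdac4 and Hdac9) they were 98.1%, 90.7% and 88.3%, and under 50 kb (Kat2a, Hdac3 and Hdac5) 69.8%, 53.9% and 45.9%. The 8 windows held 248 H3K4me1 regions untreated and 242 with KCl, 115 and 88 H3K27ac regions, 83 and 102 Gtf3c1 regions, and 10 and 5 Rpc155 regions. The whole Rpc155 lists were of unequal length, with 12531 regions untreated and 4251 with KCl. Strength is given as the fold enrichment of a region's summit over the local background, as the authors deposited it. Extent is given as the length covered by regions. A gene is called higher or lower with KCl when either measure differed by at least 1.5 times between the 2 lists. Covered shares differed most among the genes in the compact Hdac5, where each histone mark covered at least 39.2% of the window.

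**Figure D1:**
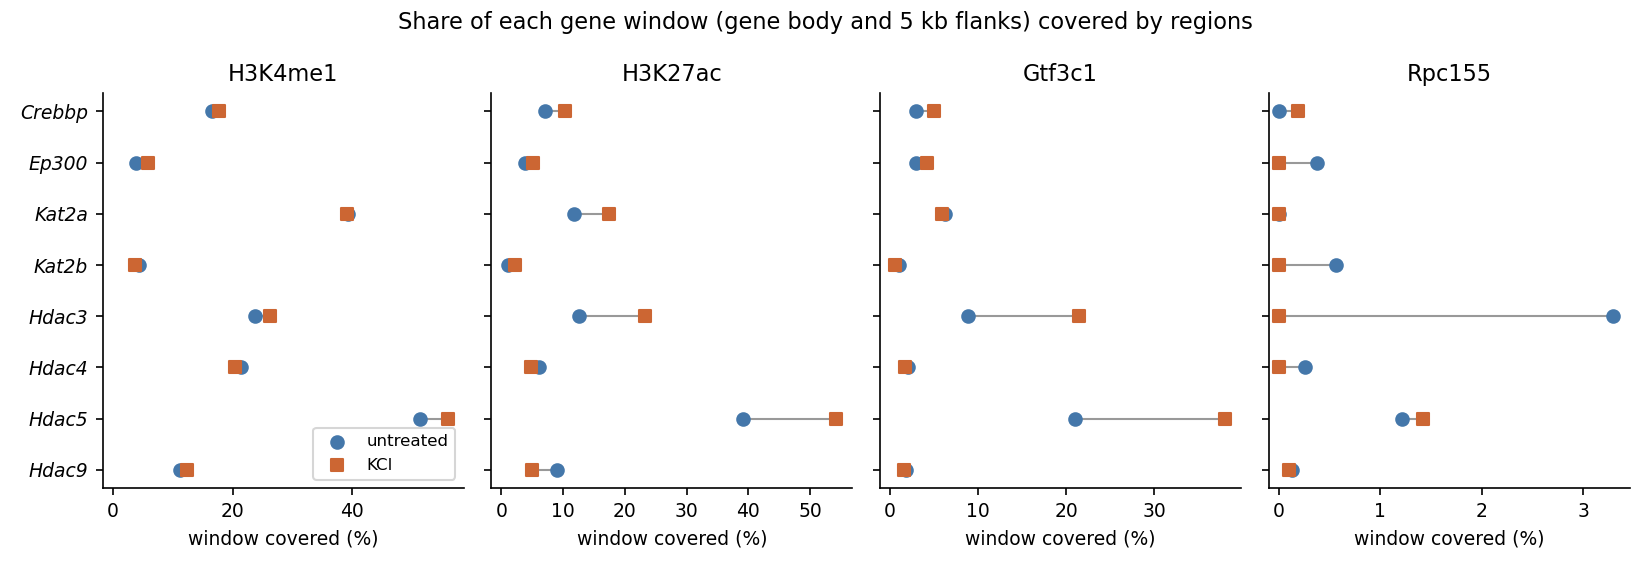
Share of each gene window (gene body and 5 kb flanks) covered by regions of each antibody, in percent, with circles for untreated and squares for KCl and 1 list behind each point. Hdac5 stands highest for H3K4me1, H3K27ac and Gtf3c1, and Hdac9 is the gene whose H3K27ac square lies farthest to the left of its circle (9.09% untreated, 4.97% with KCl).

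For H3K27ac the strongest region was called higher with KCl in 3 of the 8 genes (Kat2b, Hdac3 and Hdac4), against 36.3% of the 13481 protein-coding genes with the mark in both lists. None was called lower, against 0.905%. Covered length was called higher in 2 (Kat2b and Hdac3), against 37.2%, and lower in 1 (Hdac9), against 5.33%. The median ratio of the strongest region, KCl over untreated, was 1.44 over the 8 genes and 1.37 over all. That of covered length was 1.42 and 1.34. These shares lie near the background, so what follows describes single genes.

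Within 1 kb of the first start site, H3K27ac was listed in both conditions at 6 of the 7 genes with a start site in the table, against 50.8% of genes. At each of these 6 the fold enrichment was higher with KCl, as it was at 91.9% of the 8893 genes with the mark there in both lists, so the direction is that of most genes. It was 11.05 untreated and 16.2 with KCl at Ep300, 9.65 and 15.4 at Hdac4, and 11.8 and 14.6 at Hdac5. It was 7.36 and 11.6 at Crebbp, 7.36 and 9.18 at Kat2a, and 5.46 and 8.37 at Kat2b. Hdac3 has no entry in the table, and the higher-numbered end of the gene was used in its place, where the values were 7.75 and 13.4. The second Hdac9 start went the other way, at 10.7 untreated and 5.91 with KCl.

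**Figure D2:**
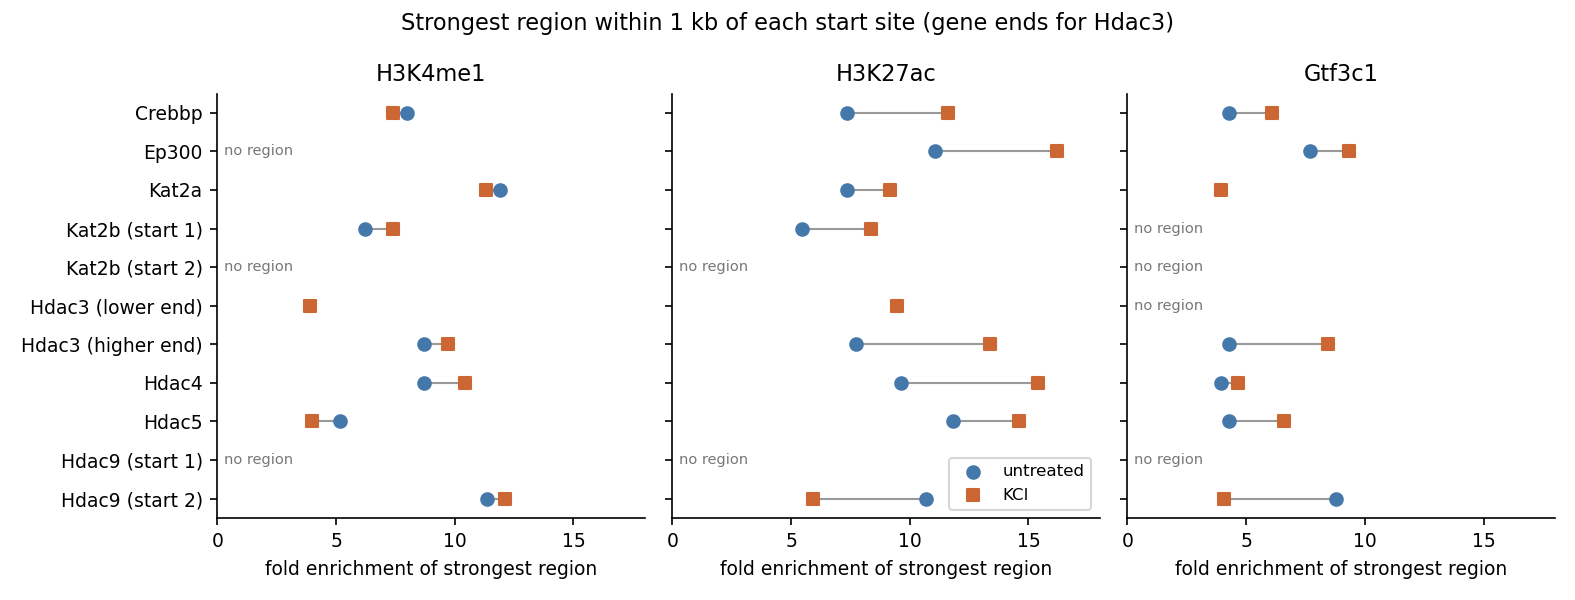
Fold enrichment of the strongest H3K4me1, H3K27ac and Gtf3c1 region within 1 kb of each start site (for Hdac3, of each gene end), with circles for untreated and squares for KCl. In the H3K27ac panel the square lies to the right of the circle at every site with both except the second Hdac9 start, where it lies to the left (10.7 untreated, 5.91 with KCl).

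Among the acetyltransferases, Crebbp carried H3K27ac at its start and far downstream in the gene. The fold enrichment was higher with KCl at the start and lower at the main downstream regions inside the gene, while the covered length was greater with KCl both at the start and over the rest of the window. At the start site the region widened from 1823 bp untreated to 3492 bp with KCl as its fold enrichment went from 7.36 to 11.6. Inside the gene, some 112 and 117 kb downstream of the start, lay a pair of broad regions. That at 4101250 to 4104131 was listed at 8.25 untreated and 5.67 with KCl, and that at 4094665 to 4098186 at 5.71 and 4.46. A region over the end of the neighbouring Trap1 (4077114 to 4078178 untreated) was listed at 6.87 and 10.7. More than 5 kb from the start, that region included, H3K27ac covered 8.17 kb untreated and 11.2 kb with KCl. H3K4me1 varied little, with 31 regions in each list, a strongest value of 16.2 untreated and 15.7 with KCl, and 23.7 and 25.4 kb covered. The strongest H3K4me1 region of Crebbp found with KCl alone lay 94.3 kb downstream of the start (4119029 to 4119230), at 7.42.

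The strongest Gtf3c1 region of Crebbp sat inside the broad downstream H3K27ac domain (4095951 to 4096621), at 10.6 untreated and 7.18 with KCl. At the start site the value was 4.30 untreated and 6.10 with KCl, and a second region just upstream (4213977 to 4214406) was listed with KCl alone, at 5.74. Gtf3c1 regions numbered 11 untreated and 18 with KCl and covered 4.17 and 7.09 kb, which called the gene higher by covered length. More than 5 kb from the start the covered length was 3.62 and 4.97 kb. Of the 18, 12 overlapped no untreated region, and 11 of those 12 were under 4 in fold enrichment.

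With KCl, Ep300 had the strongest H3K27ac region of all 8 genes, over its start site. It was listed at 11.05 over 2437 bp untreated and at 16.2 over 3137 bp with KCl. A smaller region further upstream (81584578 to 81585035 untreated) was listed at 4.95 and 9.18. No H3K4me1 region lay within 1 kb of the start in either list. The strongest H3K4me1 region of Ep300 lay upstream of that (81584153 to 81584819 untreated), at 5.51 untreated and 6.84 with KCl. H3K4me1 covered 2.89 kb untreated and 4.42 kb with KCl, which called Ep300 higher, the 1 member so called (5.92% of genes). That call is lost when regions are held to a q of 1e-05 or lower, where the ratio turned from 1.53 to 0.969. Gtf3c1 lay at the start too, at 7.70 untreated and 9.33 with KCl. The KCl region ends upstream of the annotated gene, so with the gene body alone this ratio turned from 1.21 to 0.63.

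Kat2a, the smallest gene, had an H3K27ac region at its start (7.36 untreated, 9.18 with KCl) and a weaker one upstream, over Hspb9 and Rab5c (3.05 and 4.73). Its 6 H3K4me1 regions were each shared between the lists, with a strongest value of 11.9 untreated and 11.3 with KCl. None of the 2 untreated Gtf3c1 regions in the window had its summit inside Kat2a. The stronger, over Hspb9 (100714036 to 100714880 untreated), was listed at 3.76 untreated and 4.31 with KCl. A Gtf3c1 region at the Kat2a start (100712090 to 100712448) was listed with KCl alone, at 3.95. No Rpc155 region lay in the window in either list.

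Kat2b carried the strongest Gtf3c1 region of the 8 genes, inside the gene and outside the 1 kb around each start site. It lay 20.8 kb downstream of the first start site and past the second, at 53586992 to 53587974. Its fold enrichment was 18.1 untreated and 13.6 with KCl. The place also held the gene's strongest H3K4me1 region (13.5 untreated, 13.0 with KCl). Rpc155 was listed there untreated alone, at 3.91, and H3K27ac there with KCl alone, at 3.51. This Gtf3c1 region was 983 bp wide untreated and 602 bp with KCl. A further Gtf3c1 region 87.9 kb downstream (6.09, 245 bp wide) was listed untreated alone. Covered Gtf3c1 length was 1.23 kb untreated and 0.602 kb with KCl and was called lower. At the first Kat2b start H3K27ac was listed at 5.46 over 1187 bp untreated and at 8.37 over 1869 bp with KCl. Neither Gtf3c1 nor Rpc155 was listed within 1 kb of that start. The second start had no region of any antibody within 1 kb.

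**Figure D3:**
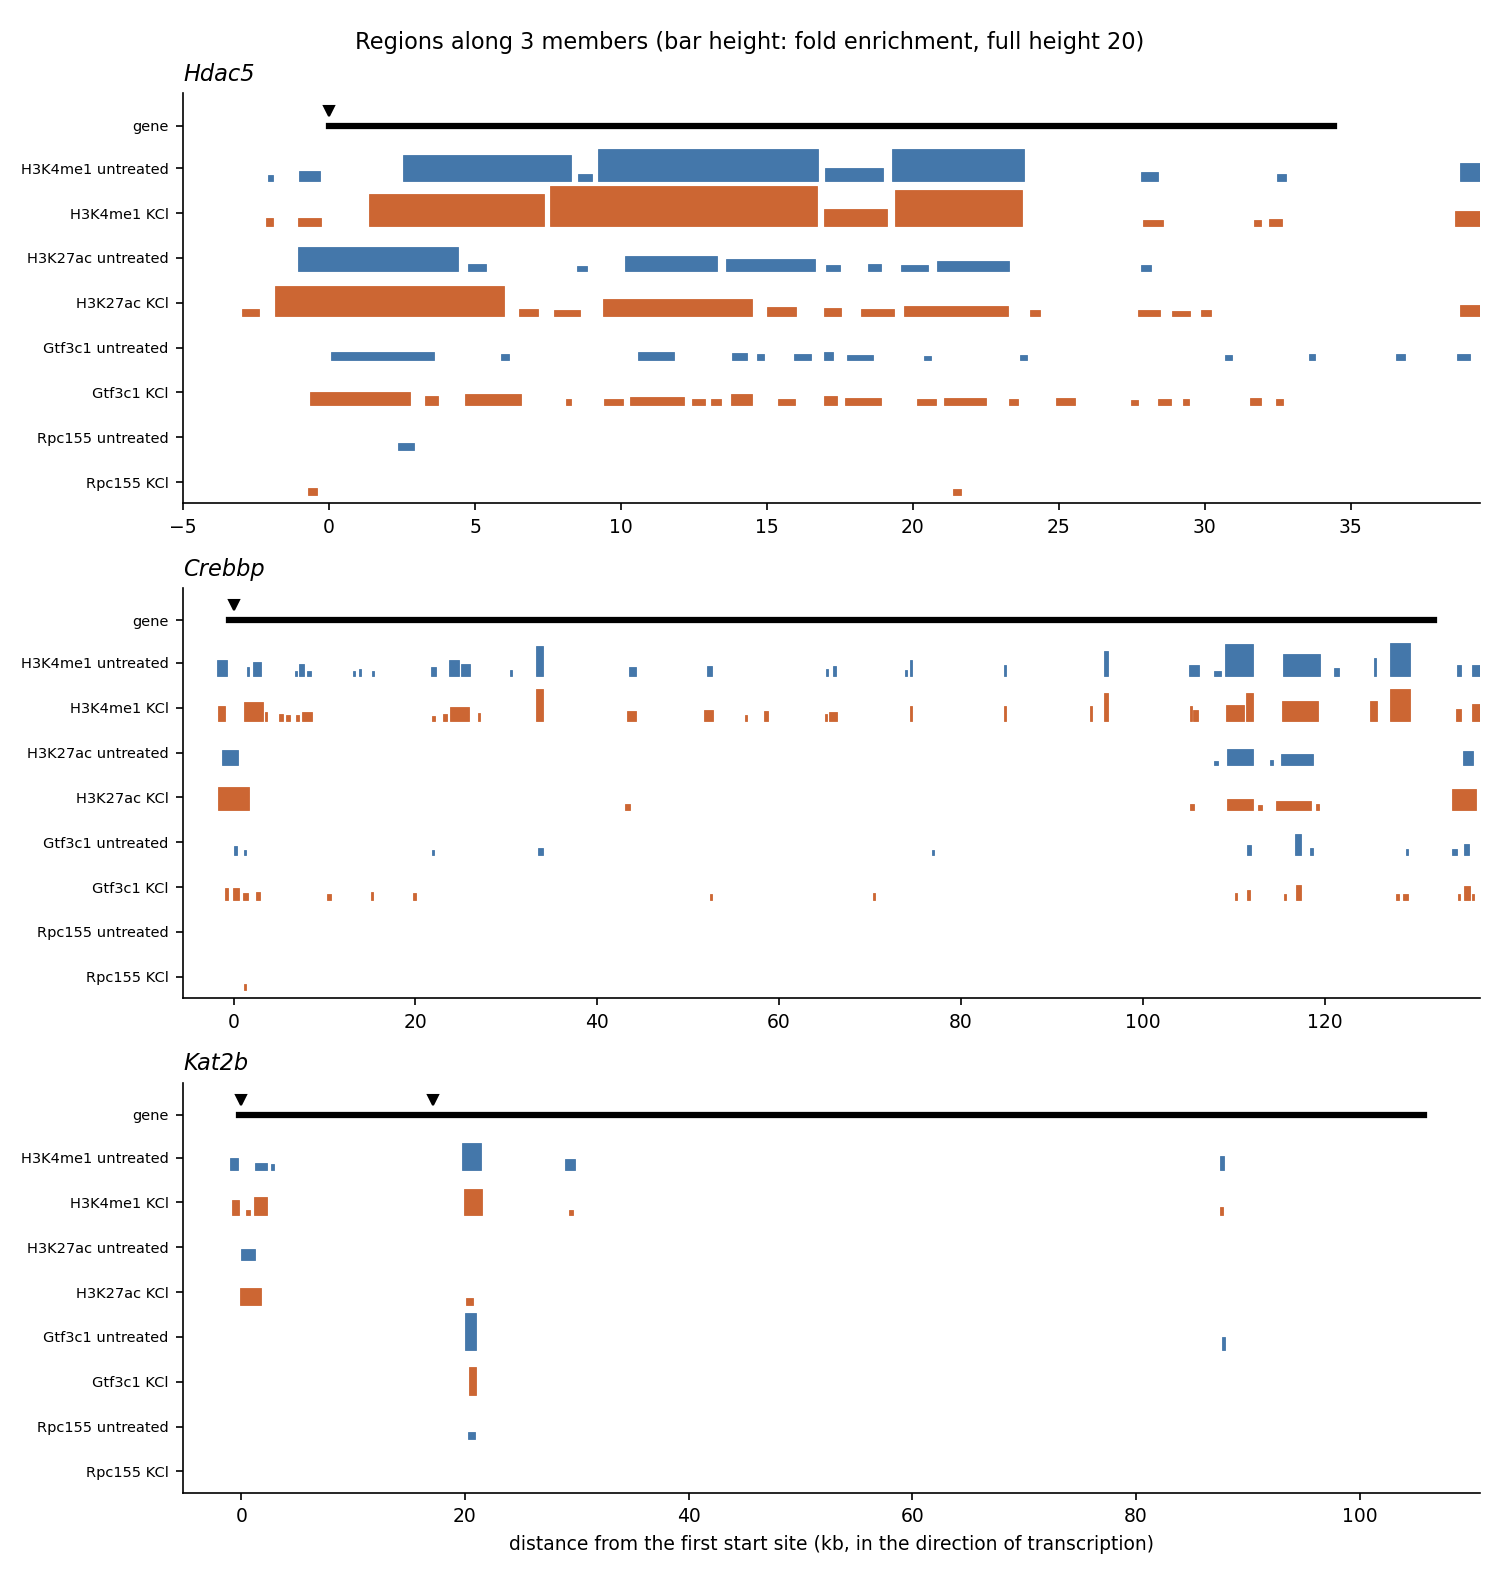
Regions of the 8 lists along Hdac5, Crebbp and Kat2b, as distance from the first start site in kb in the direction of transcription, with bar height showing fold enrichment (full height 20), the gene as a black line and start sites as triangles. With KCl, H3K27ac is taller at the start of Crebbp (11.6 against 7.36) and at the right edge over Trap1 (10.7 against 6.87) and lower over the pair of broad domains inside the gene, the widest H3K4me1 and H3K27ac bars of Hdac5 lie towards its start, and the tall Gtf3c1 bar of Kat2b stands past its second start site.

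Hdac3, the class I enzyme, had its main H3K27ac and Gtf3c1 regions at the ends of the gene, next to other genes. At the end shared with Rell2, H3K27ac was listed at 7.75 over 2813 bp untreated and at 13.4 over 3631 bp with KCl. Gtf3c1 there was listed as 2 regions untreated, the stronger at 4.30 over 739 bp, and as 1 region of 3662 bp at 8.43 with KCl. At the other end, over the edge of Diaph1, H3K27ac was listed at 5.46 and 9.45 and Gtf3c1 at 7.34 and 10.2. Covered H3K27ac was 3.54 kb untreated and 6.53 kb with KCl, and covered Gtf3c1 2.48 and 6.02 kb, both called higher. Both ends also held an Rpc155 region untreated (4.24 at the Rell2 end, 4.07 at the Diaph1 end) and none with KCl. With the bases within 1 kb of another protein-coding gene left out, no Hdac3 ratio could be formed for H3K27ac or Gtf3c1. These values therefore cannot be assigned to Hdac3 apart from its neighbours.

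Among the class IIa deacetylases, Hdac4 had a higher H3K27ac fold enrichment at its start with KCl and a shorter covered length in the rest of its window. The start site lies 15.4 kb inside the annotated gene. The region just upstream of it (92180606 to 92182048 untreated) was listed at 9.65 and 15.4, and that just downstream at 6.86 and 9.59. Covered H3K27ac length within 5 kb of the start was nearly the same, at 4.375 kb untreated and 4.461 kb with KCl. More than 5 kb from the start, H3K27ac covered 12.3 kb untreated and 8.73 kb with KCl, a ratio of 0.71 that was not called. Over all genes with such distal H3K27ac in both lists, 17.4% were called lower and 28.7% higher by this measure. Of the 20 untreated H3K27ac regions of Hdac4, 12 overlapped none of the KCl list, and all 12 were under 4 in fold enrichment.

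The longest H3K4me1 region of Hdac4 lay 168 kb downstream of its start, covering 7151 bp at 13.5 untreated and 6762 bp at 14.8 with KCl. Inside it lay the gene's strongest untreated Gtf3c1 region (92011398 to 92012132), at 7.16 untreated and 4.34 with KCl. Another Gtf3c1 region, 29.9 kb from the start, was listed untreated alone at 5.73. The strongest Gtf3c1 value of the gene thus went from 7.16 to 4.66 and was called lower, while the strongest within 1 kb of the start was 3.94 untreated and 4.66 with KCl. Both Rpc155 regions of Hdac4 lay in the same downstream H3K4me1 region, untreated alone, at 3.06 each.

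Hdac5 was the most densely covered gene. H3K4me1 covered 51.3% of its window untreated and 56.0% with KCl, H3K27ac 39.2% and 54.2%, and Gtf3c1 20.9% and 38.0%. The H3K27ac domain over its start site was 5502 bp long at 11.8 untreated and 7817 bp long at 14.6 with KCl. Its strongest H3K4me1 region lay at a different place within the gene in each list. Untreated it was at 102206371 to 102210901, listed at 16.0, where the KCl value was 17.5. With KCl it was at 102213466 to 102222600, at 19.4, the highest H3K4me1 value at the 8 genes. The strongest untreated region overlapping that KCl region was listed at 15.96. Near the start H3K4me1 was lower, at 5.15 untreated and 3.99 with KCl. All 10 untreated H3K27ac regions were met again with KCl, where 5 of 14 were new and each of those under 4.

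Gtf3c1 at Hdac5 was broad and low. At the start it formed 1 region of 3536 bp at 4.30 untreated and of 3409 bp at 6.60 with KCl. Regions numbered 14 and 21 and covered 9.30 and 16.9 kb. Hdac5 was the 1 gene called higher for Gtf3c1 by both strength and covered length. Of the 21 KCl regions, 12 overlapped none of the untreated list, each under 4. Rpc155 was listed at different places, 2.74 kb downstream of the start untreated (3.57). With KCl it was listed at position -543 from the start (3.59) and 21651 bp downstream of it (3.09).

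Hdac9 had less H3K27ac with KCl over much of its length. It held 72 regions covering 79.9 kb untreated and 42 covering 43.7 kb with KCl, a ratio of 0.55. Its strongest region untreated (34523814 to 34531588) was listed at 10.7. The strongest with KCl lay at another place (34495205 to 34502855), at 8.24, which gave a ratio of 0.77 between the 2 maxima. These ratios were ranked among the protein-coding genes with the mark in both lists. Hdac9 lay lower than all but 2.92% of them for covered length and all but 2.54% for strength. Windows over 150 kb as a class lean the same way: 20.7% of them were called lower by covered length and 16.4% higher. Of the 72 untreated regions, 41 overlapped none of the KCl list, and 40 of those 41 were under 4 in fold enrichment. Of the 42 KCl regions, 10 overlapped none of the untreated list.

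The decrease was spread over several stretches of the gene and lay mostly in its first 600 kb. In 8 of 9 consecutive stretches of 100 kb, counted from the first start, the covered H3K27ac length was shorter with KCl. The stretch from 400 to 500 kb held most, 32.3 kb untreated and 19.8 kb with KCl, and that from 500 to 600 kb went from 5.76 to 0.645 kb. Past 600 kb little was covered in either list. From 600 to 700 kb it was 0.93 kb untreated, with no region listed with KCl. It was 1.27 and 0.568 kb from 700 to 800 kb, and 1.54 and 1.22 kb from 800 to 900 kb. The stretch from 100 to 200 kb was the exception, at 0.310 and 1.06 kb. H3K4me1 did not follow: it was longer with KCl in 7 of the 9 stretches, and over the whole gene it covered 98.2 kb untreated and 109 kb with KCl. Of its 131 untreated H3K4me1 regions, 107 were met again with KCl. The strongest was listed at 12.8 untreated, and the strongest with KCl at 12.4.

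**Figure D4:**
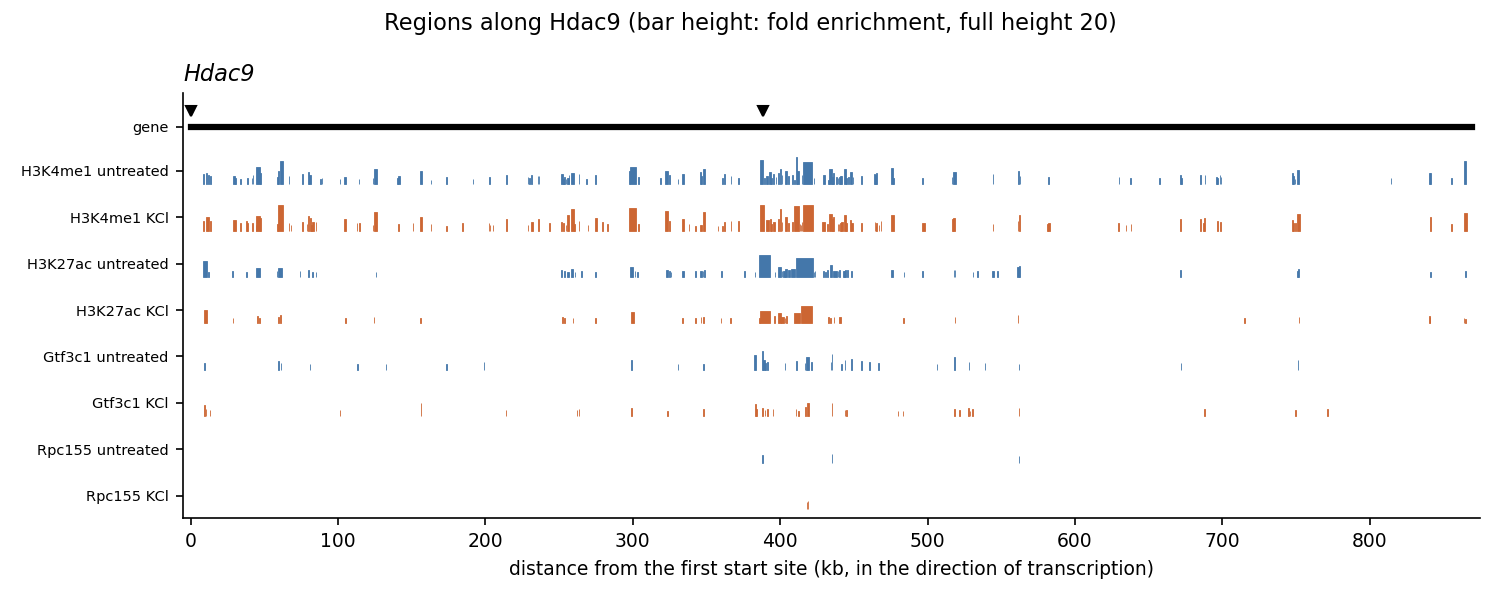
Regions of the 8 lists along Hdac9, as distance from the first start site in kb in the direction of transcription, with bar height showing fold enrichment (full height 20) and triangles at the 2 start sites. H3K27ac bars are fewer with KCl (42 against 72) and lower at the second start, while the H3K4me1 bars are of like number (131 untreated, 126 with KCl).

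The first Hdac9 start site had no region of any antibody within 1 kb. The second start, 388 kb downstream, lay in a cluster of all 4 antibodies. There H3K27ac was listed at 10.7 over 7775 bp untreated and 5.91 over 6778 bp with KCl. Gtf3c1 there was listed at 8.77 and 4.06, and Rpc155 at 3.74 untreated and not at all with KCl. H3K4me1 at this start was 11.4 untreated and 12.1 with KCl. The broad domain further downstream (34494903 to 34506477 untreated) varied less in fold enrichment, at 8.89 and 8.24. It was 11575 bp long untreated, and the strongest KCl region there (34495205 to 34502855) was 7651 bp long. Gtf3c1 within the domain was 6.07 and 6.10. The Gtf3c1 regions of Hdac9 found in 1 condition alone were mostly weak: 18 of the 21 untreated and 19 of the 20 with KCl were under 4. The strongest found with KCl alone (34760477 to 34760737) was listed at 6.10.

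**Figure D5:**
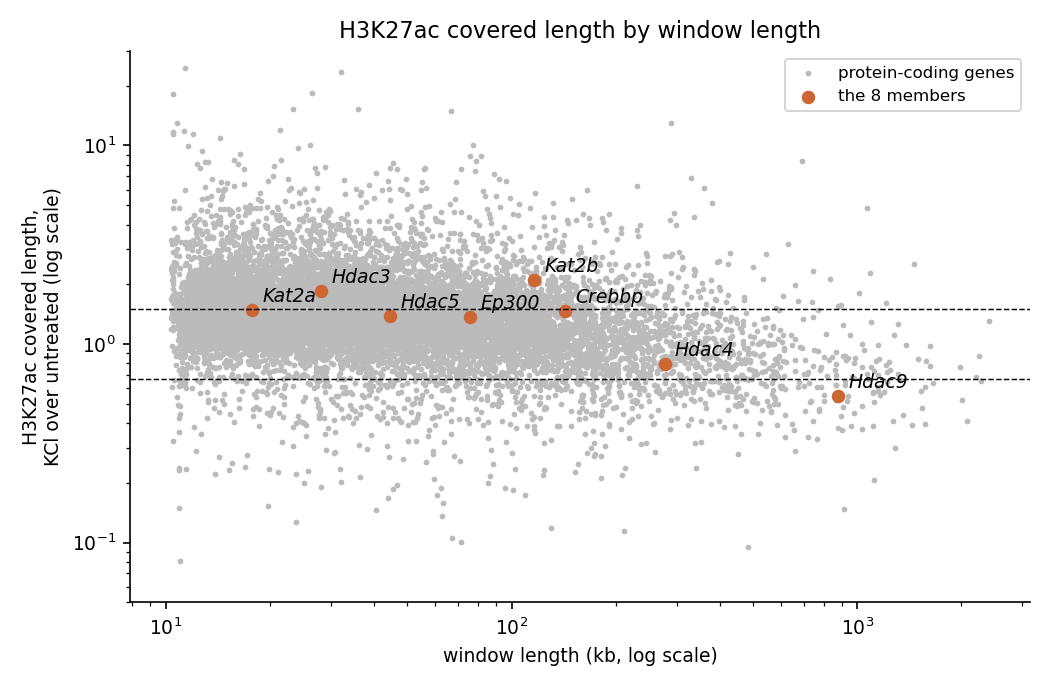
Ratio of H3K27ac covered length, KCl over untreated, against window length in kb (both axes log), for protein-coding genes with the mark in both lists (grey) and the 8 genes (orange), with dashed lines at 1.5 and its inverse. Kat2b (2.09) and Hdac3 (1.84) lie above the upper line and Hdac9 (0.55) below the lower one, among the windows over 150 kb, of which 20.7% lie below that line.

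Taking Gtf3c1 over the whole set, the strongest region was called higher in 1 of 8 genes (Hdac5) and lower in 1 (Hdac4), against 12.6% and 9.87% of all genes. Among windows over 150 kb, the class of Hdac4, 23.6% were called lower. Covered length was called higher in 3 (Crebbp, Hdac3 and Hdac5) and lower in 1 (Kat2b), against 25% and 24.2%. Within 1 kb of the first start site Gtf3c1 was listed in both conditions at 4 of the 7 genes in the table (Crebbp, Ep300, Hdac4 and Hdac5), against 39.2% of genes. Every one of these 4 had a higher value with KCl, as did 64.9% of the 6855 genes with Gtf3c1 there in both lists, and the second Hdac9 start had a lower one (8.77 and 4.06). More than 5 kb from a start site, covered Gtf3c1 was called higher in Hdac5 (5.77 kb untreated, 12.7 kb with KCl) and lower in Hdac4 (3.19 and 1.90 kb), against 20.3% and 35.5% of all genes with such regions in both lists. It was not called in Crebbp, Ep300 (0.763 and 1.06 kb) or Hdac9 (12.6 and 11.5 kb).

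For H3K4me1 no gene was called by its strongest region, against 5.37% higher and 2.14% lower among all genes. None was called lower by covered length, against 3.36%. At the first start site it was listed in both conditions at 5 of the 7 genes in the table, against 61.5% of genes.

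Turnover of regions at the 8 genes was set beside that of the whole lists. For H3K4me1, 19.0% of untreated and 23.1% of KCl regions overlapped none of the other list, against 18.3% and 21.5%. For H3K27ac the shares were 47.8% and 31.8%, against 37.3% and 31.9%, and 41 of the 55 untreated regions concerned were in Hdac9. For Gtf3c1 they were 48.2% and 54.9%, against 54.4% and 48.9%. Regions found in 1 condition alone were mostly weak. Untreated, 45 of 47 such H3K4me1 regions, 54 of 55 H3K27ac regions and 33 of 40 Gtf3c1 regions were under 4 in fold enrichment, against 69 of 201, 34 of 60 and 22 of 43 shared ones. With KCl the counts were 46 of 56, 27 of 28 and 53 of 56, against 67 of 186, 36 of 60 and 21 of 46. The strongest such region, of H3K4me1 in Crebbp, reached 7.42. A region's absence from a list does not show that the mark is absent.

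Rpc155 was sparse. A region was listed in both conditions at 2 genes (Hdac5 and Hdac9), with KCl alone at 1 (Crebbp), untreated alone at 4 (Ep300, Kat2b, Hdac3 and Hdac4) and in neither at 1 (Kat2a). Over all genes these shares were 11%, 3.52%, 22.6% and 62.9%. They vary with window length. Untreated alone was 19.3% under 50 kb, 30% at 50 to 150 kb and 34.7% over 150 kb. Neither was 69%, 52.7% and 30.2%, and both was 8.5%, 12.9% and 31.4%. None of the 10 untreated regions overlapped any of the 5 KCl regions, where 82.4% of all untreated and 48.1% of all KCl regions overlapped none of the other list. Fold enrichments ran from 2.72 to 4.24 untreated and from 2.91 to 4.00 with KCl. The KCl region at Crebbp (4212008 to 4212275) was listed with a −log10 q of 1.49, close to the lists' limit. So was the untreated region at Ep300 (81586851 to 81587137), at 1.50. Of these 15 regions, 9 of the 10 untreated and all 5 KCl regions overlapped H3K27ac of the same condition, and 8 and 5 overlapped Gtf3c1.

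Merging the H3K4me1 regions of both conditions gave 279 places at the 8 genes. H3K27ac met 65 of them (23.3%) in both conditions, 15 (5.38%) with KCl alone and 30 (10.8%) untreated alone. Over the 217884 places of the whole genome the shares were 19.2%, 6.05% and 6.59%. Of the 30 places with the mark untreated alone, 23 were in Hdac9 and 6 in Hdac4. Gtf3c1 met 44.5% of the places that carried H3K27ac and 14.8% of the others, where the whole genome gave 55.0% and 11.7%. The first share differed widely by gene and was lowest, at 32.8%, in Hdac9, which held 145 of the 279 places. It was 33.3% in Kat2b, 41.2% in Hdac4, 50% in Ep300, 66.7% in Crebbp and 100% in Kat2a, Hdac3 and Hdac5.

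Other acetyltransferases and deacetylases, and genes that work with the enzymes above, were counted in the same way. Those named here were chosen after their values were seen. Among 9 other acetyltransferases, H3K27ac strength was called higher in 4 (Hat1, Kat7, Kat8 and Ncoa2), against the 36.3% of all genes given above. Among 14 other deacetylases it was called higher in 3 (Hdac2, Sirt2 and Sirt5), and Hdac8 carried the mark with KCl alone. Of 11 SAGA and ATAC partners of Kat2a and Kat2b, 4 were called higher. Of 12 partners of the class IIa deacetylases, 4 were called higher in H3K27ac strength: Mef2a and Mef2d, which encode MEF2 factors, Sik1, a kinase of these deacetylases, and Ywhab, a 14-3-3 protein. By covered H3K27ac length the genes called higher were 2 of the 9 acetyltransferases, 9 of the 13 deacetylases with the mark in both lists, 2 of the 11 SAGA and ATAC partners and 2 of the 12 class IIa partners, against 37.2% of all genes. No gene of these 4 lists was called lower for H3K27ac, against 0.905% of all genes by strength and 5.33% by covered length. Among genes with Gtf3c1 in both lists, its covered length was called higher in 0 and lower in 2 of 8 acetyltransferases, in 3 and 3 of 12 deacetylases, in 3 and 2 of 11 SAGA and ATAC partners, and in 5 and 0 of 12 class IIa partners, against 25% and 24.2%. Gtf3c1 strength in the class IIa partners was called higher in 2 (Camk2a and Sik1) and lower in 2 (Camk2b and Prkd1), against 12.6% and 9.87%.

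The neuronal label was checked against H3K27ac within 1 kb of the ends of marker genes. All 8 neuronal markers carried it in both conditions, and none of 4 microglial markers did. Of 4 astrocyte markers 3 carried it untreated (Gfap, Aqp4 and Slc1a3) and 2 with KCl, of 4 oligodendrocyte markers 1 in each (Mbp), and of 4 endothelial markers 1 untreated (Cdh5) and none with KCl. The part of these other cells in the values above was not tested. Sequencing depth is unknown here, because the lists give no counts of reads, and no interval is given for a region's or a gene's value.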

How the data were processed

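Each deposited list gives, per region, a position, a summit and the peak caller's values. The submitters' processing notes name Bowtie2, MACS2 and the build GRCm38/mm10, with versions and settings not given in the sources used here. Whether the 3 replicates were pooled before calling is likewise not given in the sources used here. Fold enrichment, as the authors deposited it, is a ratio of summit signal over local background. The −log10 q was also used as deposited, and the −log10 p was not used. The deposited score equalled 10 times the −log10 q, rounded down, in all 651012 regions. The lowest −log10 q was 1.30 to 1.31 per list and 1.46 for Rpc155 with KCl, so 0.05 was read as the authors' limit on q. Values were not rescaled between libraries. The 8 lists held 4251 to 193683 regions. The total inputs (2 samples) were not analysed here, and 0 columns of per-sample values were left unused.

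Regions overlapping a gene by at least 1 bp, flanks of 5 kb included, were counted with Python 3.11.15, pandas 2.3.3 and NumPy 2.4.6, on genes of the RefSeq table for GRCm38. A region is shared when it overlaps a region of the other condition by at least 1 bp. The ratio KCl over untreated was called at 1.5-fold for genes with regions in both lists, and the same was counted over all protein-coding genes and within classes of window length (under 50 kb, 50 to 150 kb, over 150 kb). Start sites and promoter sequences came from RefSeq. The code was tested on simulated data. Named regions were, per gene, antibody and list, the strongest and the strongest found in 1 condition alone. Others were added to describe a gene after their values were seen, as was the split at 5 kb from a start site. The members, gene lists and markers were chosen with earlier results of these data known, and 1 of the gene lists is not reported here. Alternatives changed the q, list lengths, flanks, neighbouring genes, overlap, strength and start distance.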

Additional observations from a re-analysis of the deposited data

How the results depend on the processing

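No paired analysis was possible because each antibody and condition has 1 list, and for the same reason no replicate could be left out. Requiring 50% of the shorter region to overlap left all 8 shares of unshared regions within their 95% binomial intervals (counting error only). The Rpc155 shares were already 100% in each condition, so this rule could not move them. At a q of 1e-05 or lower, the Ep300 ratio of covered H3K4me1 length turned from 1.53 to 0.969, so the count called higher went from 1 to 0. Covered Gtf3c1 called lower went from 1 to 2 genes, genes with Rpc155 in both, KCl alone and untreated alone from 2, 1 and 4 to 0, 0 and 2, and unshared KCl regions from 31.8% to 17.1% (H3K27ac) and from 54.9% to 40.0% (Gtf3c1). With lists of equal length those Rpc155 counts were 1, 2 and 2. With the gene body alone, Gtf3c1 with KCl alone went from 0 to 1, and strength called higher and lower from 1 to 2 each. With 1 kb flanks, the KCl-alone count went from 0 to 1 and strength called higher from 1 to 2. Without bases near another gene, H3K4me1 covered length called lower went from 0 to 1, H3K27ac with KCl alone from 0 to 1 and covered length called higher from 2 to 1, and Gtf3c1 with KCl alone from 0 to 2. With regions of at least 6-fold enrichment, KCl-alone genes went from 0 to 1 for H3K4me1, H3K27ac and Gtf3c1, Gtf3c1 in both from 8 to 5 and untreated alone from 0 to 1, and all 3 Rpc155 counts to 0. Counting regions within 500 bp as shared lowered unshared H3K4me1 from 19.0% to 13.3% untreated and from 23.1% to 15.7% with KCl, and H3K27ac with KCl from 31.8% to 21.6%. Within 250 bp of a start, H3K4me1 was listed at 1 gene untreated and 2 with KCl in place of 5 each, and Rpc155 at 0 in place of 1 each; within 5 kb Rpc155 was at 2 each. Of the single-gene values, 8 of 56 moved at the stricter q, 3 of 58 with equal lists, 6 of 58 with the gene body alone, 2 of 58 with 1 kb flanks and 1 of 54 without bases near another gene. The cause of these moves was not tested. The Hdac9 ratio of covered H3K27ac was 0.53 to 0.56 under the alternatives run. Depth is unknown, which limits every statement on weak regions.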
